A study of Mus musculus with 5 samples.

Results

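RNA levels of 35 genes of homologous recombination and the Fanconi anemia pathway were examined in 5 groups of LLC material, with 1 library per group. Membership was by a list of symbols and used no measured value, and the list was drawn up with earlier results of these data known. All 35 were found among the 13979 symbols that the 3 tables used here share, and all 35 were among the 11214 symbols with a mean scaled value of at least 1.

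Homologous recombination repairs a broken chromosome by copying the intact sister: nucleases trim the break, and BRCA2 with its partners prepares the exposed strand to find and copy the matching sequence. The Fanconi proteins detect covalent links between the strands, mark FANCD2 and FANCI with ubiquitin and hand the lesion to nucleases and then to recombination. Cells that lack these functions are known to be sensitive to inhibitors of PARP, and recombination genes are expressed mostly in dividing cells.

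LLC is a Lewis lung carcinoma line of the mouse. The groups were Control, BMN (BMN673, a PARP inhibitor), PAZA (a polymer that carries azacytidine, an inhibitor of DNA methyltransferases, and that also served as the drug carrier), and BMN loaded in PAZA at a low and at a high dose, called the low-dose and the high-dose combination here. The study's text describes tumors grown from LLC cells in female C57BL/6 mice and taken 1 day after the last treatment, while the sample labels describe LLC cells in culture treated for 72 h. The labels name the tissue as lung. The sources used here do not say how many animals or cultures each library came from, and no group has a replicate, so no difference below was tested against a spread between samples.

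No unit is named in the tables. The values have the form of FPKM, read fragments relative to transcript length and library size, which allows levels to be compared between genes. Each library was scaled to a sum of 1000000 over the shared symbols, and every level below is a scaled FPKM value. Differences are on the log2(value + 1) scale, and a gene was counted as higher or lower at a difference of at least 1.5-fold on that scale. Ratios are of scaled values without a pseudocount. The step between the lowest values put the libraries at about 6170000 to 8510000 fragments. Each ratio below has an exact 95% interval from the fragments this depth gives, which covers counting error only and would be too narrow if fragments are PCR copies or if replicates vary. Genes named as higher or lower were picked by the same values, so an interval without 1 is no separate support for them.

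Between 35 and 45 of 49 markers of blood, stromal, muscle, skin and fat cells were at 1 or more in each library. The 6 leukocyte markers were at 1 or more in every library and summed to 137 to 212, and of the 6 macrophage markers each was also at 1 or more in every library. In bulk RNA, fewer cells of a type and less RNA per cell cannot be told apart. The 6 fibroblast markers summed to 313 in Control, 817 in BMN, 534 in PAZA, 318 in the low-dose and 350 in the high-dose combination. The 6 skeletal muscle markers summed to 8.39, 171, 54.8, 11.3 and 191 in the same order. The 5 epidermis markers found summed to 68.5, 205, 8.09, 1.84 and 12.8, and 3 of them were at 0 in the low-dose combination. The 28 mitosis and G2 genes, used here as markers of dividing cells, summed to 2241, 2850, 2402, 2044 and 1937. Fibroblast, epidermis and mitosis genes were thus all highest in BMN. Their part in the levels of the recombination genes was not tested.

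Promoters are shown for BRCA1, FANCM and FANCF, 3 of the genes lower in the low-dose combination than in BMN, and for FANCC, the gene with the widest range over the libraries among those whose values passed the check between tables. They run from 250 bases before to 50 bases after the start site, were taken from RefSeq on GRCm38.p6 and are given 5′ to 3′ on the strand of the gene. Capitals mark CpG dinucleotides, the sites that DNA methyltransferases modify. Methylation was not measured in these libraries.
BRCA1, chr11:101551906-101552205, minus strand: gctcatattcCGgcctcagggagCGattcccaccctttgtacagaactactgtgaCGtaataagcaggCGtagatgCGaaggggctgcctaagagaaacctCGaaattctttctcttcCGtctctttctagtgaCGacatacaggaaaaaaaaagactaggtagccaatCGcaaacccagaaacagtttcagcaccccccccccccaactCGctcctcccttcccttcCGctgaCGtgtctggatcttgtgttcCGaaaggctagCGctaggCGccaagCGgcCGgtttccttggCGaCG
FANCM, chr12:65075353-65075652, plus strand: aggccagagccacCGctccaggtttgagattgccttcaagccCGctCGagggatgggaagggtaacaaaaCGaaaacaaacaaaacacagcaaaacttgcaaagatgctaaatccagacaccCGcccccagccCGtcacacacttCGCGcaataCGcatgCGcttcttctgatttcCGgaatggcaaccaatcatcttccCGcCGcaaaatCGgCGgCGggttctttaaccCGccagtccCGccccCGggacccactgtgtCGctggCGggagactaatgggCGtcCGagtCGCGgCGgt
FANCC, chr13:63431696-63431995, minus strand: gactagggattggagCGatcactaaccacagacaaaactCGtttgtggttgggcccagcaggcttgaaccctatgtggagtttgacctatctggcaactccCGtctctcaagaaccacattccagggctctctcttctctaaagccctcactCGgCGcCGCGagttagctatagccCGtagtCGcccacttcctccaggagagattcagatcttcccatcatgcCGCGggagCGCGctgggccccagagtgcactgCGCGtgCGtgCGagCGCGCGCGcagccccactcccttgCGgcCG
FANCF, chr7:51862218-51862517, minus strand: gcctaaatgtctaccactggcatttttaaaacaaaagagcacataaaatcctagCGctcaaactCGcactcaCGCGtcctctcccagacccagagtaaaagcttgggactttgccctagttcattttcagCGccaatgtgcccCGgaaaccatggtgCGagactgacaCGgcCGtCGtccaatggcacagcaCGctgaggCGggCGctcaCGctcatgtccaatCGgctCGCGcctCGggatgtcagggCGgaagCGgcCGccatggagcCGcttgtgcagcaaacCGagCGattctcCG
The BRCA1 promoter holds 19 CpG, that of FANCM 26, that of FANCC 23 and that of FANCF 25. All 4 hold CCAAT or its complement, the box bound by NF-Y, and none holds the letters searched for an E2F site. The starts of BRCA1 and FANCF are the outer ends of the annotated genes, while those of FANCM and FANCC lie inside the annotated spans, from 65074110 to 65131842 on chromosome 12 and from 63301334 to 63497292 on chromosome 13, so that a start farther out is annotated as well.

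The 35 genes were weakly to moderately expressed. Their mean levels over the 5 libraries ran from 1.35 to 68.3 with a median of 10.0, against a median of 13.5 for all symbols tested. No gene was at 0 in any library, 9 had a mean under 5, and 4 had a mean over 40. The ratio of the highest to the lowest library had a median of 1.78 over the 35 genes and 1.79 over all symbols tested, and it was at least 2 for 12 genes. Without RAD52, whose BMN value is doubtful and whose other 4 libraries span 1.93-fold in the tables used here, it was at least 2 for 11 genes. Summed over the 35 genes, the level was 666 in Control, 683 in BMN, 550 in PAZA, 521 in the low-dose and 524 in the high-dose combination. BMN was the highest library for 15 genes, among them RAD52 with a BMN value that is doubtful, Control for 11, the low-dose combination for 5, PAZA for 3 and the high-dose combination for 1. The low-dose combination was the lowest library for 11 genes, the high-dose combination for 10 and PAZA for 7, while Control was lowest for 4 and BMN for 3.

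**Figure D1:**
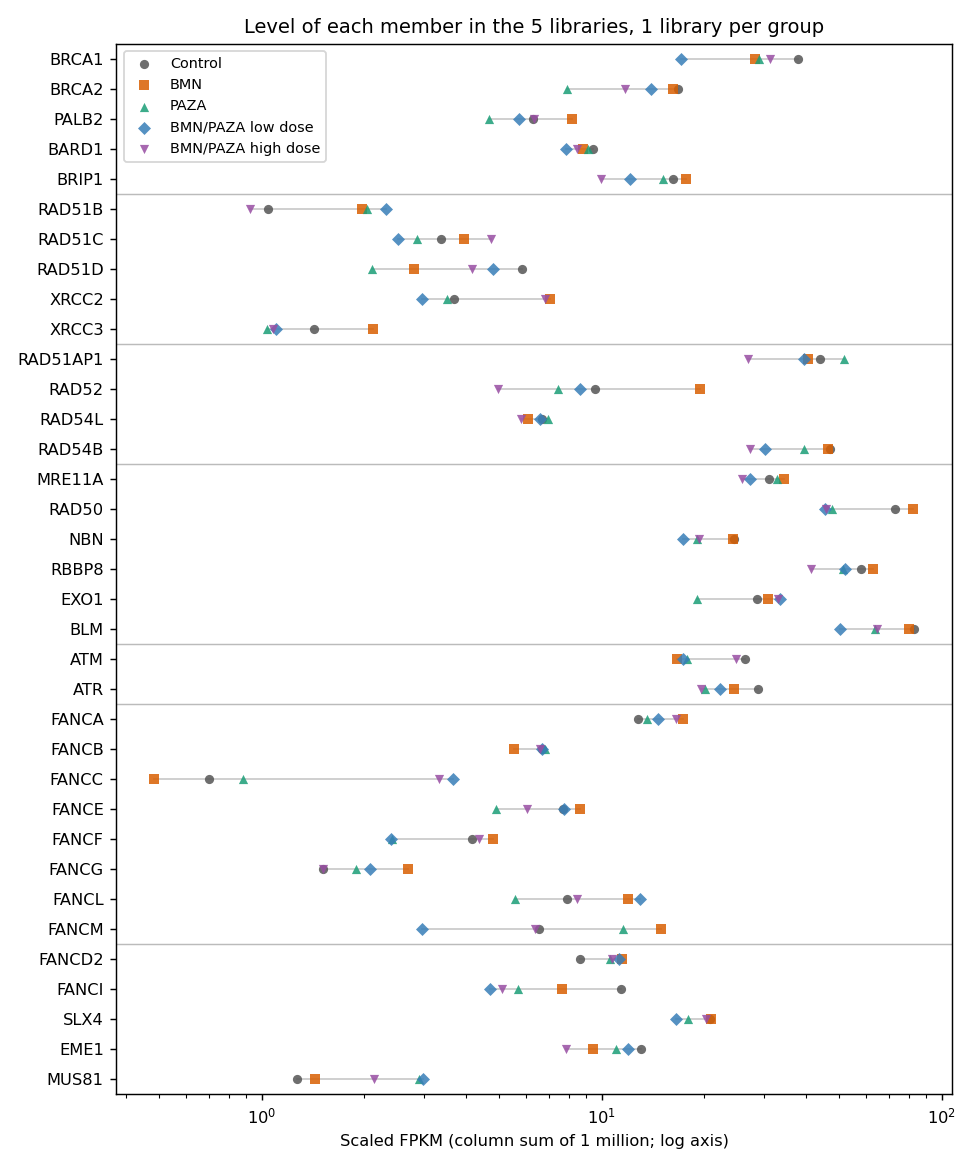
Scaled FPKM (log axis) of each of the 35 genes, grouped by role, with 1 symbol per library and a line from the lowest to the highest library. FANCC and FANCM have the widest spans, 7.56-fold and 5.04-fold, while BARD1 and RAD54L span 1.20-fold, and orange squares (BMN) stand at the right end for 15 genes.

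Among the BRCA proteins and their partners, BRCA1 was lowest in the low-dose combination and BRCA2 in PAZA. BRCA1, a ubiquitin ligase that promotes the trimming of breaks, had 37.7 in Control, 28.2 in BMN, 29.0 in PAZA, 17.1 in the low-dose and 31.2 in the high-dose combination. The other 4 libraries lay between 28.2 and 37.7, and the low-dose value stood apart below them. BRCA2, which acts on the trimmed strand, had 16.8 in Control, 16.3 in BMN, 7.94 in PAZA, 13.9 in the low-dose and 11.7 in the high-dose combination. All 3 libraries with PAZA were below the other 2, and PAZA alone was the lowest. PALB2, which joins BRCA1 to BRCA2, had 6.30, 8.18, 4.66, 5.71 and 6.31 in the same order of libraries. BARD1, the partner of BRCA1 in the ligase, had 9.46, 8.81, 9.10, 7.85 and 8.48, the narrowest range beside RAD54L. BRIP1, a helicase that binds BRCA1, had 16.3, 17.7, 15.2, 12.1 and 9.97, with both combinations below the 3 other libraries.

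RAD51B, RAD51C, RAD51D, XRCC2 and XRCC3, whose proteins form complexes that assist strand exchange, all had means under 5 and did not share an order of libraries. RAD51B had 1.05 in Control, 1.97 in BMN, 2.04 in PAZA, 2.32 in the low-dose and 0.928 in the high-dose combination, from about 6 to 16 fragments per library. RAD51C had 3.37, 3.94, 2.86, 2.51 and 4.74 in that order. RAD51D had 5.85, 2.81, 2.11, 4.78 and 4.17, so that both single agents were below Control and both combinations. XRCC2 had 3.69 in Control, 7.06 in BMN, 3.52 in PAZA, 2.97 in the low-dose and 6.83 in the high-dose combination. BMN and the high-dose combination stood apart above the other 3 libraries. XRCC3 had 1.42, 2.12, 1.04, 1.10 and 1.08, with the 3 libraries that received PAZA close together.

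Among the accessory proteins of strand exchange, RAD54B and RAD51AP1 were the most abundant. RAD51AP1, which stimulates strand invasion, had 44.0 in Control, 40.6 in BMN, 51.7 in PAZA, 39.4 in the low-dose and 27.0 in the high-dose combination. The high-dose value was the only one under 39.4. RAD54B, a motor protein on DNA, had 47.1, 46.4, 39.3, 30.2 and 27.3, with Control and BMN above, PAZA between and the combinations below. RAD54L, the better known motor of the same family, had 6.68, 6.09, 6.94, 6.58 and 5.79, a 1.20-fold range. RAD52, which anneals single strands, had 9.56 in Control, 19.5 in BMN, 7.45 in PAZA, 8.67 in the low-dose and 4.95 in the high-dose combination. Its BMN value is doubtful, and its PAZA and low-dose values differ between tables, as described below.

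Break sensing and resection held BLM, RAD50 and RBBP8, the 3 most abundant of the 35 genes by mean level. RAD50, the ATPase of the complex that binds broken ends, had 73.0 in Control, 82.4 in BMN, 47.6 in PAZA, 45.5 in the low-dose and 45.7 in the high-dose combination. The 3 libraries with PAZA lay within 45.5 to 47.6, and Control and BMN were both at 73.0 or above. MRE11A, the nuclease of that complex, had 31.1, 34.4, 32.9, 27.3 and 25.8 in the same order. NBN, its remaining subunit, had 24.5, 24.4, 19.0, 17.3 and 19.3, with the same division of libraries as RAD50. RBBP8, known as CtIP and the partner of MRE11A in trimming, had 58.0, 63.0, 51.2, 51.9 and 41.3. EXO1, the exonuclease that extends the trimmed strand, had 28.7 in Control, 30.9 in BMN, 19.1 in PAZA, 33.4 in the low-dose and 33.0 in the high-dose combination. PAZA alone stood apart below, and both combinations were above Control. BLM, the helicase of Bloom syndrome, had 83.1, 80.1, 63.5, 50.1 and 64.7, with the low-dose combination lowest.

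The 2 damage kinases were both highest in Control. ATM, the kinase activated by breaks, had 26.4 in Control, 16.7 in BMN, 17.9 in PAZA, 17.4 in the low-dose and 24.8 in the high-dose combination. Control and the high-dose combination were above the other 3 libraries, which lay within 16.7 to 17.9. ATR, the kinase activated by exposed single strands, had 28.7, 24.6, 20.2, 22.3 and 19.6, and the libraries with PAZA were again below the other 2.

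In the Fanconi core complex, the ubiquitin ligase of the pathway with its anchor FANCM, the genes differed widely among themselves. FANCM, a DNA translocase that recruits the complex to lesions, had 6.53 in Control, 15.0 in BMN, 11.6 in PAZA, 2.97 in the low-dose and 6.37 in the high-dose combination, from about 188, 515, 335, 82 and 179 fragments. Each single agent was above Control, the high-dose combination was at the Control level, and the low-dose combination was the lowest. FANCC, a subunit that pairs with FANCE and FANCF, had 0.699 in Control, 0.484 in BMN, 0.880 in PAZA, 3.66 in the low-dose and 3.32 in the high-dose combination, from about 8, 6, 10, 39 and 36 fragments. Both combinations stood apart above the 3 other libraries, which were all under 1. FANCF, the subunit that links FANCM to the complex, had 4.16, 4.78, 2.42, 2.40 and 4.37, from about 14 to 36 fragments. PAZA and the low-dose combination formed the lower pair and the 3 others the upper group.

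The other core subunits had no common order of libraries. FANCL, the ligase subunit itself, had 7.93 in Control, 11.9 in BMN, 5.56 in PAZA, 12.9 in the low-dose and 8.47 in the high-dose combination. FANCA, a large scaffold subunit, had 12.8, 17.4, 13.6, 14.7 and 16.6, with every treated library above Control. FANCE, which contacts FANCD2, had 7.68, 8.64, 4.89, 7.75 and 6.05. In FANCE, as in FANCL, PALB2 and EXO1, PAZA alone was the lowest library. FANCB had 6.70, 5.52, 6.81, 6.68 and 6.57, with only BMN outside the range of 6.57 to 6.81. FANCG had 1.52, 2.70, 1.89, 2.09 and 1.52, from about 15 to 33 fragments.

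FANCD2 and FANCI, which form the pair that the core complex marks, went opposite ways. FANCD2 had 8.64 in Control, 11.4 in BMN, 10.6 in PAZA, 11.2 in the low-dose and 10.8 in the high-dose combination. FANCI had 11.4, 7.63, 5.68, 4.69 and 5.11 in the same order. Control was thus the lowest library for FANCD2 and the highest for FANCI. SLX4, the platform for nucleases that cut around a lesion, had 20.8, 21.0, 18.0, 16.6 and 20.3. EME1, the partner of MUS81, had 13.1, 9.45, 11.0, 12.0 and 7.85. MUS81, a nuclease for branched DNA, had 1.27, 1.43, 2.91, 2.99 and 2.14, from about 10 to 22 fragments, and its 3 libraries with PAZA were above the other 2.

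The low-dose combination was compared with BMN alone. The study compared DNA repair genes between BMN/PAZA and BMN, and its text does not give the dose for that comparison. Of the 35 genes, 25 (71.4%) were below BMN and 10 above, where 63.9% of all symbols tested were below, with a median log2 difference of −0.26 against −0.18 for all symbols tested. Lower by at least 1.5-fold were 9 genes, 25.7% of the 35, against 20.3% of all symbols tested. Higher were 3 genes, against 9.37% of all symbols. Relative to the median of all symbols, 20 of the 35 were below and 15 above, 5 were lower and 3 higher, and 12.7% and 14.6% of all symbols were. The lower genes were FANCM, RAD52, XRCC2, RAD50, FANCF, BRCA1, BLM, FANCI and RAD54B. Relative to the median of all symbols only the first 5 of these were lower, while BRCA1, BLM, FANCI and RAD54B were not.

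FANCM had the lowest ratio of the 35 genes, 0.198 (interval 0.155 to 0.251). XRCC2 was at 0.420 of its BMN level (0.276 to 0.625), FANCF at 0.502 (0.250 to 0.953) and RAD50 at 0.553 (0.509 to 0.600). BRCA1 was at 0.608 (0.538 to 0.686), BLM at 0.625 (0.575 to 0.680), FANCI at 0.614 (0.461 to 0.812) and RAD54B at 0.651 (0.565 to 0.749). All of these intervals lie below 1, although that of FANCF reaches close to it. Of the 34 genes without a doubtful value, 18 had an interval that left out 1. FANCC had the highest ratio, 7.56 (3.18 to 21.8), from about 39 fragments against 6. MUS81 was at 2.09 (1.01 to 4.51) and RAD51D at 1.70 (1.13 to 2.59).

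By role, all 5 BRCA proteins and partners were below BMN, with a median of −0.45, and 4 of them lay below the median of all symbols. Of the 6 sensing and resection genes 5 were below BMN by either measure, with a median of −0.40. The 8 core complex genes split into 5 below and 3 above BMN, or 4 and 4 relative to the median of all symbols. Of FANCD2, FANCI and the nuclease genes, 3 were below and 2 above, or 2 and 3. Both kinases had intervals that included 1, with ratios of 1.04 (0.932 to 1.16) for ATM and 0.907 (0.818 to 1.01) for ATR.

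**Figure D2:**
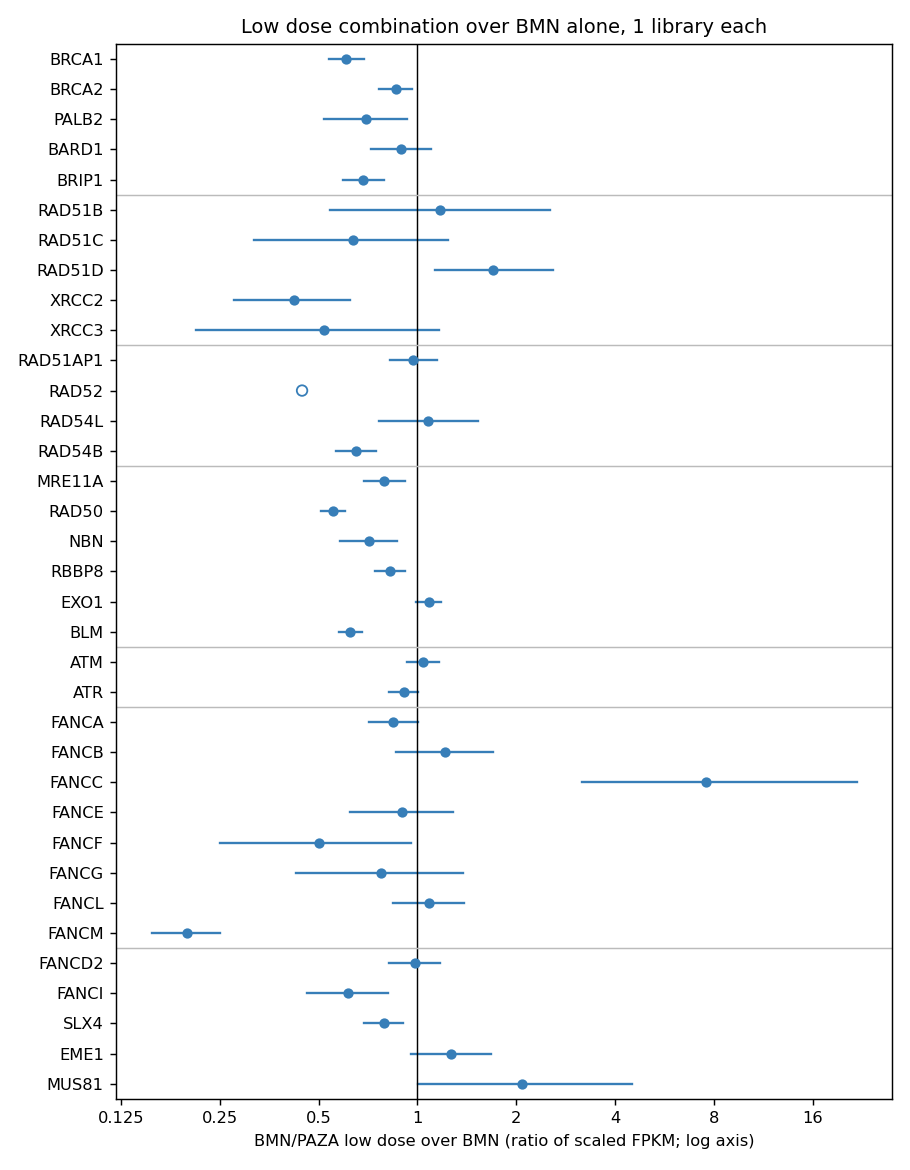
Ratio of the low-dose combination to BMN (log axis) for each gene by role, with exact 95% intervals for counting error. FANCM at 0.198 lies farthest to the left and FANCC at 7.56 farthest to the right, and the open circle is RAD52, given without an interval because its BMN value is doubtful.

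The BMN value of RAD52 was 2 times its low-dose value in the table that pairs PAZA with the low-dose combination, within 0.2%, after the median ratio of 1.047 between tables. A library listed in more than 1 table should differ there by 1 constant for all genes. For 34 of the 35 genes it did so in all 3 pairs of tables compared, within 0.5%, and RAD52 was off the constant in each. Its low-dose value differed 1.35-fold between the tables, and its PAZA value differed 1.083-fold. Next to RAD52 in this multiple stood XRCC2 at 2.12 and FANCF at 1.78, neither within 0.5% of 2. Among all symbols tested, 153, or 1.37%, had such a BMN value. Within the same distance of 1.8, 1.9, 2.1 and 2.2 there were 27, 42, 21 and 19 symbols with a value, against 159 at 2. Without RAD52, which such a value places below BMN by construction, 8 of 34 genes were lower in the low-dose combination than in BMN, 3 were higher, and the median was −0.24.

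**Figure D3:**
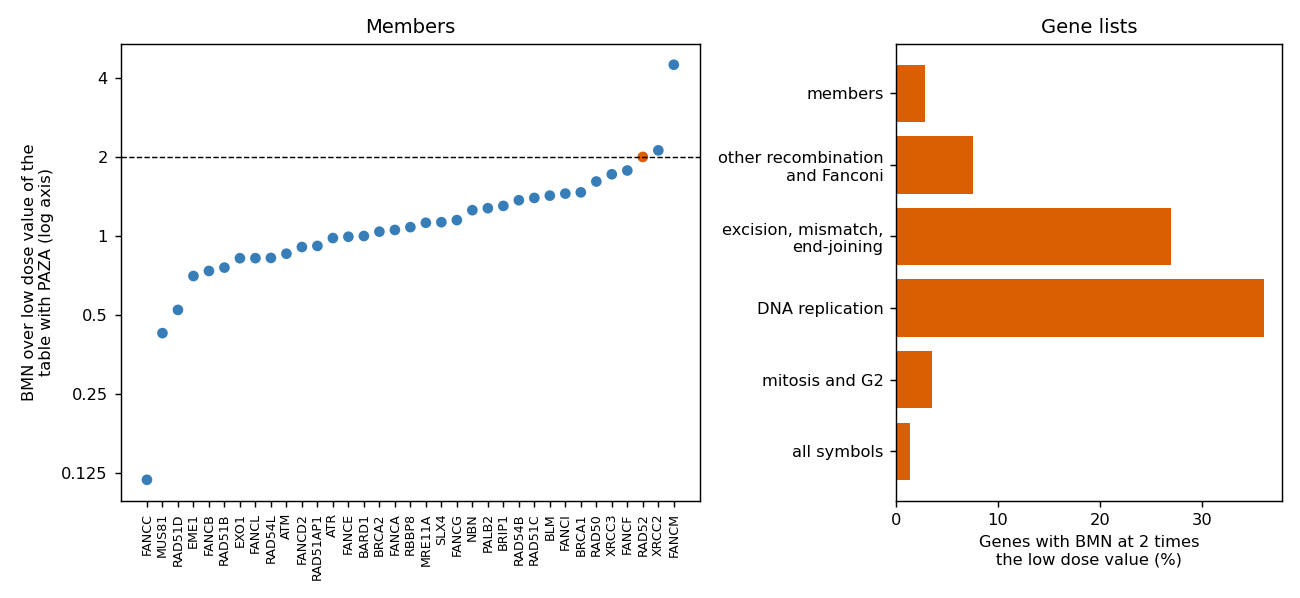
Left, BMN value over the low-dose value of the table with PAZA (log axis) for each of the 35 genes, with RAD52 in orange on the dashed line at 2. Right, share of genes in each list whose BMN value lies within 0.5% of that multiple, 2.86% of the 35 genes, 36.1% of the DNA replication genes and 1.37% of all symbols tested.

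Other repair lists held more such values. A gene whose BMN value is 2 times a low-dose value lies below BMN by that construction, so leaving such genes out removes lower genes and raises a median whatever else the data hold, and the counts with and without them are given only as a description. They were found for 4 of 53 other recombination and Fanconi genes, among them RPA2, RPA3 and ERCC4, for 10 of 37 genes of excision, mismatch and end-joining repair, and for 13 of 36 replication genes. In the low-dose combination against BMN, 20.3% of all symbols tested were lower and 9.37% higher, with a median of −0.18. Of the 37 excision, mismatch and end-joining genes, 14 (37.8%) were lower and 3 (8.11%) higher. Without the doubtful values 5 of these 27 (18.5%) were lower and 3 (11.1%) higher. Their median moved from −0.24 to −0.10. Of the 36 replication genes 16 (44.4%) were lower, and 3 (13.0%) of the 23 without doubtful values, with a median of −0.35 and then −0.098. The 28 mitosis and G2 genes, of which 1 had a doubtful value, had a median of −0.60 and 14 (50%) lower genes. Without that gene 13 of 27 (48.1%) were lower.

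PAZA alone against Control compares the carrier with the library labelled Control, and both values come from the same table. Of the 35 genes 24 (68.6%) were below Control and 11 above, where 58.4% of all symbols were below, with a median log2 difference of −0.22 against −0.098 for all symbols. Centred, 21 were below and 14 above. Lower were 5 genes, RAD51D, BRCA2, FANCI, RAD50 and FANCF, against 15.6% of all symbols, and higher were 2, FANCM and MUS81, against 10.6%. Relative to the median of all symbols 3 were lower and 3 higher, where 11.4% and 14% of all symbols were. RAD51D was at 0.362 of Control (0.224 to 0.569), BRCA2 at 0.473 (0.412 to 0.543), FANCI at 0.497 (0.386 to 0.636) and RAD50 at 0.653 (0.600 to 0.710). These intervals lie below 1, whereas FANCF at 0.583 (0.287 to 1.14) was not separated from Control by counting error. FANCM was at 1.77 (1.48 to 2.13) and MUS81 at 2.28 (1.04 to 5.39). All 6 sensing and resection genes but MRE11A were below Control, by the median of all symbols as well. Of the 8 core complex genes 5 were above Control and 3 below, by either measure, with a median of 0.049.

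BMN alone against Control was the comparison in which the median of the list stood nearest to that of all symbols. By the share below Control, the high-dose combination was nearer, with 68.6% of the list against 67.6% of all symbols. Above Control were 20 genes and below 15 (42.9%), where 39.9% of all symbols were below, with a median of 0.10 against 0.092 for all symbols. Higher were FANCM, RAD52 and XRCC2, 3 genes against 13% of all symbols, and lower were RAD51D and ATM, 2 genes against 6.97%. Centred on the median of all symbols, 3 were higher and 3 lower, and 10.5% and 9.23% of all symbols were. FANCM was at 2.29 (1.94 to 2.72) and XRCC2 at 1.91 (1.33 to 2.79) of Control, while RAD51D was at 0.480 (0.322 to 0.708) and ATM at 0.633 (0.574 to 0.698). With a pseudocount of 0.1 in place of 1, 6 were higher, against 16.2% of all symbols. Without RAD52, 2 were higher and 2 lower.

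The combinations were each compared with the same Control library. At the low dose, 26 genes (74.3%) were below Control and 9 above, where 56.7% of all symbols were below, with a median of −0.20 against −0.077 for all symbols. Centred on the median of all symbols, 24 were below and 11 above. Lower were 7 genes (FANCI, BRCA1, FANCM, BLM, RAD50, RAD54B and FANCF) against 14.2% of all symbols, and higher were 4 (FANCC, MUS81, RAD51B and FANCL) against 11.2%. Centred, 5 were lower and 4 higher, and 11.1% and 13.6% of all symbols were. FANCI was at 0.410 of Control (0.311 to 0.536), BRCA1 at 0.454 (0.402 to 0.511) and FANCM at 0.455 (0.347 to 0.593). FANCC was at 5.24 (2.42 to 13.0), and FANCL at 1.63 (1.22 to 2.19). RAD51B at 2.21 (0.848 to 6.40) was not separated from Control by counting error, nor was FANCF at 0.577 (0.278 to 1.15).

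At the high dose, 24 genes (68.6%) were below Control and 11 above, where 67.6% of all symbols were below, and the median was −0.18 against −0.22 for all symbols. Lower were 7 genes, 20% of the 35, against 20.2% of all symbols, namely FANCI, RAD52, RAD54B, EME1, RAD51AP1, BRIP1 and RAD50. Higher were 2, FANCC and XRCC2, against 8.44%. Centred on the median of all symbols, the list changed side: its median was 0.043, with 2 lower and 4 higher genes, where 10.2% and 14% of all symbols were. The 2 genes still lower were FANCI and RAD52. FANCI was at 0.446 (0.342 to 0.578), RAD54B at 0.579 (0.499 to 0.671), EME1 at 0.601 (0.440 to 0.815) and RAD51AP1 at 0.613 (0.508 to 0.739) of Control. XRCC2 was at 1.85 (1.27 to 2.74), and FANCM, at 0.976 (0.790 to 1.20), was not separated from Control.

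The low-dose combination was compared with PAZA alone, which adds BMN to the carrier. Below PAZA were 18 genes (51.4%) and above 17, where 47.2% of all symbols were below, with a median of −0.011 against 0.026 for all symbols. Lower were FANCM and BRCA1, 2 genes against 8.13% of all symbols, and higher were FANCC, FANCL, RAD51D, EXO1 and BRCA2, 5 genes against 9.12%. Centring left 2 lower and 5 higher, and 8.74% and 8.44% of all symbols. FANCM was at 0.256 of PAZA (0.199 to 0.327) and BRCA1 at 0.591 (0.521 to 0.669). FANCC was at 4.16 (2.04 to 9.35), FANCL at 2.32 (1.68 to 3.24), RAD51D at 2.26 (1.41 to 3.71), BRCA2 at 1.76 (1.52 to 2.03) and EXO1 at 1.75 (1.57 to 1.95). All 7 of these intervals left out 1. RAD50, at 0.956 (0.869 to 1.05), had an interval that included 1.

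Between the doses, 21 genes were above in the low-dose combination and 14 (40%) below, where 34.2% of all symbols were below, with a median of 0.057 against 0.13 for all symbols. Lower at the low dose were XRCC2, BRCA1, FANCM, RAD51C and FANCF, 5 genes or 14.3% of the 35 against 6.38% of all symbols. Higher were RAD52 and RAD51B, 2 genes against 12.5%. Centred on the median of all symbols, the median of the list was −0.078. By that measure 6 were lower and 1 was higher, and 8.9% and 7.87% of all symbols were. XRCC2 was at 0.434 of the high-dose level (0.282 to 0.657), FANCM at 0.466 (0.355 to 0.609) and BRCA1 at 0.549 (0.485 to 0.620). RAD51C at 0.531 (0.263 to 1.03), FANCF at 0.549 (0.266 to 1.08) and RAD51B at 2.49 (0.915 to 7.85) were not separated by counting error. FANCC did not separate the doses, at 1.10 (0.682 to 1.78).

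**Figure D4:**
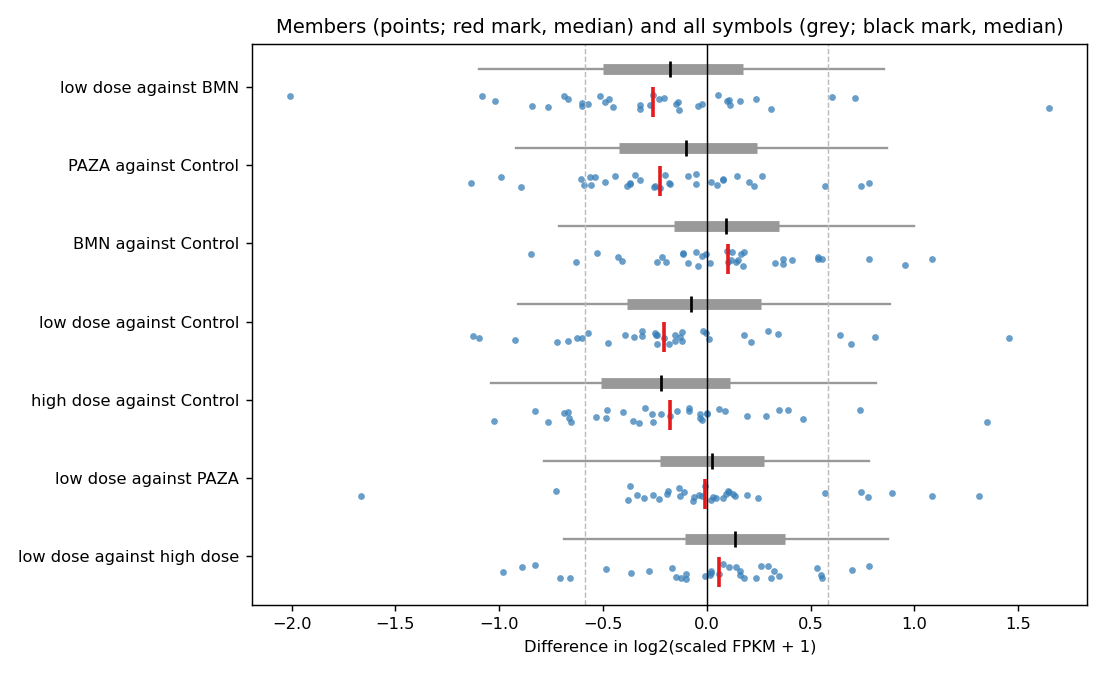
Difference in log2(scaled FPKM + 1) in the 7 comparisons, with each of the 35 genes as a point and their median as a red mark. The thick grey bar gives the interquartile range of all symbols tested and the thin line runs from their 5% to their 95% point, with the median in black, and dashed lines mark 1.5-fold. The red mark lies left of the black one in 5 of the 7 comparisons, −0.26 against −0.18 for the low-dose combination against BMN.

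Some genes divided the libraries by agent. All 3 libraries that received PAZA were below the other 2 for 12 of the 35 genes, or 34.3%, against 30.8% of all symbols tested. These were BRCA2, BRIP1, RAD52, RAD54B, XRCC3, RAD50, NBN, RBBP8, BLM, ATR, FANCI and SLX4. RAD52 is counted here with its doubtful BMN value, and without it the order held for 11 of 34 genes, or 32.4%. Epidermis markers divided the libraries in the same way, at 68.5 and 205 in Control and BMN and at 1.84 to 12.8 in the 3 others, and their part in this order was not tested. FANCC and MUS81 showed the opposite order, 5.71% of the 35 against 7.83% of all symbols. The 3 libraries that received BMN were below the other 2 for BARD1, RAD51AP1, RAD54L and FANCB, and above them for EXO1, FANCA, FANCD2 and FANCL. Each direction held 4 genes, 11.4% of the 35, against 6.55% and 6.58% of all symbols.

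Of the other genes of recombination and the Fanconi pathway, 53 were found and 52 had a mean of at least 1. In the low-dose combination against BMN 10 (19.2%) were lower and 2 (3.85%) higher, with a median of −0.37. Of all symbols tested 20.3% were lower and 9.37% higher, with a median of −0.18. Without 4 doubtful BMN values 6 of 48 (12.5%) were lower and 2 (4.17%) higher, with a median of −0.33. The 3 lowest differences without a doubtful value were −1.64 for GEN1, a nuclease for crossed strands, −0.89 for SFR1, a cofactor of strand exchange, and −0.84 for MAD2L2, a subunit of shieldin. GEN1 had 13.7 in Control, 33.1 in BMN, 18.8 in PAZA, 9.96 in the low-dose and 12.7 in the high-dose combination. Its BMN value was the highest and its low-dose value the lowest, the order also seen for FANCM. The 3 highest among genes with a mean of at least 1 were 0.94 for FAAP100, 0.65 for FAAP24 and 0.42 for SLX1B. FAAP100 and FAAP24 belong to the Fanconi core complex, and SLX1B is a nuclease that SLX4 holds. FAAP100 had 1.17, 0.653, 1.48, 2.17 and 1.17, and like FANCC it was lowest in BMN and highest in the low-dose combination.

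Promoter sequence was not used to choose the genes. A promoter was matched for 27 of the 35 genes, with EXO1, FANCD2, NBN, RAD50, RAD51D, RAD54B, RBBP8 and XRCC2 unmatched. The matched promoters held a median of 23 CpG in 300 bases, from 3 in FANCL to 32 in BLM, against 21 in 8808 promoters of tested symbols. CCAAT on either strand was in 17 of 27, or 63.0%, against 39.4% of those promoters. An E2F site, searched as TTTCCCGC, TTTGGCGC, TTTGCCGC or TTTCGCGC on both strands, was in 4 of 27, or 14.8%, against 4.45%, namely those of BARD1, BRCA2, FANCG and RAD51C. The element CHR, searched as TTTGAA or TTCGAA on both strands, was in 3 of 27, or 11.1%, against 14.3%, namely those of ATR, BARD1 and EME1. Chromosome 11 held 7 of the 35 genes, 20% against 8.15% of all symbols tested. These were BRCA1, BRIP1, RAD51C, RAD51D, RAD50, FANCL and EME1, and they did not share an order of libraries.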

How the data were processed

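RNA was sequenced in 5 groups of LLC material, 1 library each. Per the submitters' processing notes, reads were handled with HISAT2 and StringTie on GRCm38, with versions and the use of strand not given in the sources used here, so reads of overlapping genes cannot be told apart. The authors deposited 5 tables of 2 groups each, whose deposited values were read as FPKM. The low-dose library of the table with BMN had 0.307 of its values in the table that pairs both doses (median ratio), a constant that scaling removes.

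The tables with Control and PAZA, BMN and high dose, and both doses were joined by symbol (highest-mean row of a repeated symbol) and scaled to a sum of 1000000. Differences used a pseudocount of 1, symbols of mean 1 or more and a call at 1.5-fold, with no test. A BMN value was called doubtful within 0.5% of 2 times the low-dose value of the table with PAZA. Fragments were estimated from the step of FPKM times length in genes with 1 transcript and from the GENCODE M21 transcript with the longest coding sequence, so they are approximate, and intervals are Clopper-Pearson intervals of the 2 fragment numbers.

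A gene of the list of other recombination genes is not reported here. All lists, like the 35 genes, were chosen with earlier results of these data known. All 35 are given. Of the other recombination genes with a mean of at least 1 and no doubtful value, the 3 highest and 3 lowest in low dose against BMN are named. Promoters are those of BRCA1, FANCM, FANCF and the widest-ranging gene without a doubtful value. The steps were tested on simulated data. Alternatives were a pseudocount of 0.1, centring, a call at 2-fold, both columns from 1 table, other handling of repeated rows, low values and doubtful values, and a mean of at least 5. Tables were computed in Python 3.11.15 with pandas 2.3.3 and numpy 2.4.6, intervals with scipy 1.17.1 and figures with matplotlib 3.10.9.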

Additional observations from a re-analysis of the deposited data

How the results depend on the processing

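No paired analysis was possible because each group has 1 library, and no library could be left out. Under all alternatives together, 123 list medians and counts kept their side or stayed within 1.5 times, 31 counts moved and 1 median reversed. For single genes, 340 values kept their side of the threshold and 59 did not, 44 of these with a call at 2-fold, 14 with centring and 1 with both columns from 1 table, and none changed sign. In the order low dose against BMN, PAZA against Control, BMN against Control, low dose against Control, high dose against Control, low dose against PAZA and low dose against high dose, a call at 2-fold left 1, 0, 1, 1, 1, 2 and 0 genes higher and 3, 1, 0, 2, 1, 1 and 0 lower, where 2.50% to 4.99% of all symbols were higher and 2.38% to 6.51% lower. Centring left 5 lower genes in low dose against BMN, 3 in PAZA against Control, and 1 higher gene in low dose against high dose. In high dose against Control it turned the median to 0.043, with 4 genes higher and 2 lower. In low dose against high dose it turned the median from 0.057 to −0.078. A pseudocount of 0.1 raised the higher genes to 6 in BMN against Control and to 4 in low dose against high dose, where all symbols went from 13% to 16.2% and from 12.5% to 15.9%. Leaving out RAD52 left 1 higher gene in low dose against high dose. A mean of at least 5, chosen after seeing the data, left 0 higher genes in low dose against BMN and in high dose against Control, 1 in PAZA against Control, in low dose against Control and in low dose against high dose, and 3 in low dose against PAZA. It left 3 lower genes in PAZA against Control, 1 in BMN against Control and 2 in low dose against high dose, out of 26 genes, where 5.47% to 10.5% of 8279 symbols were higher and 4.12% to 20.7% lower. A higher threshold or mean keeps fewer genes by construction, and the cause of the other shifts was not tested. Depth limits the genes with few fragments, RAD51B, RAD51C, FANCC, FANCF, FANCG, XRCC3 and MUS81.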
